A study of Mus musculus with 32 samples.

Results

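The data are degradome libraries of mouse spleen, 4 from Ftsj1-deficient (Ftsj1_DF) mice and 4 from wild-type (WT) mice, out of 32 libraries of 5 organs in the series. They were chosen by their organ and genotype labels, and every one of the 55289 named genes in the authors' deposited spleen table belongs to the comparison. All 8 mice were males aged 4 months, without special treatment, and each library was made from 5 µg of total RNA of whole spleen. The spleens came from other mice than the remaining organs. The labels list 3 sets of brothers among the 8 mice, each with mice of both genotypes. The labels describe no allele beyond the deficiency, and no tissue or cell type to which it is restricted. The comparison asks which uncapped RNAs differ in abundance between the genotypes in this organ.

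Degradome sequencing reads the 5′ ends of polyadenylated RNA that carries no cap. Such ends arise when a transcript is decapped on its way to exonucleolytic decay or is cut inside its body, so a read marks a decay intermediate and not an intact messenger RNA. Ftsj1 is an X-linked methyltransferase that adds a methyl group to the ribose of nucleotides in the anticodon loop of several transfer RNAs, working with partner proteins such as Thada and Wdr6. The spleen filters blood, recycles red cells and houses B and T lymphocytes, and in mice it also keeps making red cells, platelets and granulocytes.

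The spleen label was checked against marker genes. Cd79a, a B cell receptor component, had a mean of 16406 normalized reads in the authors' deposited spleen table, against 69.4 to 282.6 in the other 4 tables. Cd3e, a T cell receptor subunit, had a mean of 136 in the authors' deposited spleen table and at most 7.09 elsewhere. Alas2 of erythroid cells and Mzb1 of plasma cells are listed at 0 there. Transcripts of the exocrine pancreas, which lies next to the spleen, were also present, and 54 listed acinar genes made up 23.1% of the sum of all means. Because the tissue was whole, a change in the number of cells of a type and a change in the uncapped RNA per cell cannot be told apart.

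The authors' deposited table holds a mean, a fold change and its error per gene, and the whole reads behind them were worked out by arithmetic for 17710 genes. They are nearly all genes with means from 0.5 to 100 and 116 of higher mean, tried because of their call, list or extreme fold change. The 4 libraries of each genotype are numbered here by their size factor, the divisor that brings libraries to a common depth. The factors were 1.56, 1.33, 0.831 and 0.549 for deficient 1 to 4 and 1.52, 1.49, 0.859 and 0.649 for wild-type 1 to 4. Which number belongs to which mouse is unknown, so brothers cannot be matched. Reads are listed below in the order of libraries 1 to 4 of a genotype. Normalized reads are reads divided by the size factor.

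The libraries differed from each other in ways that genotype does not describe. Among 5700 genes with recovered reads and a mean of at least 20, wild-type 2 was the highest library for 21.9%, against 8.40% to 15.2% for the other 7. Wild-type 4 had no read for 5.67% of these genes, against 0.947% to 2.68% in the other 7. Correlations of log2 normalized reads between libraries over these genes were low, 0.22 to 0.31 within the deficient, 0.18 to 0.29 within the wild-type and 0.11 to 0.33 between the genotypes. Nearly all of these genes had means from 20 to 100, and so narrow a range by itself lowers a correlation. The correlations therefore do not measure how alike the libraries were. These are descriptions across genes of low read number, which are not independent replicates.

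The authors' deposited table names no direction. The genotype in which Ftsj1 was lower is taken as the deficient one, so the direction of Ftsj1 was set by this choice and checks nothing. Its recovered reads were 103, 21, 14 and 32 in the deficient libraries and 1252, 179, 123 and 211 in the wild-type libraries. After normalization these were 39.2 ± 26.6 and 353 ± 327 (mean ± SD, n = 4 each). No deficient library reached the lowest wild-type library, and wild-type 1 stood above the other 3 wild-type libraries. The log2 fold change in the authors' deposited table was -3.17 ± 0.77 (SE, adjusted p = 0.0261 by DESeq2's Wald test with Benjamini-Hochberg adjustment). Without wild-type 1 the refitted log2 fold change was -2.32. A positive value is therefore read as more reads in the deficient mice throughout.

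Of 23092 genes with an adjusted p in the authors' deposited table, called tested here, 50 passed a false discovery rate of 5%, which is 0.217%. Of these, 28 were higher in deficient mice (0.121%) and 22 lower (0.0953%). An unadjusted p under 0.05 was found for 1378 tested genes (5.97%), with 2.62% higher and 3.35% lower. The 50 genes were scarce in reads, with means from 8.07 to 400.5 and a median of 60.2, against a median of 127 for all tested genes. The 7584 tested genes with a mean above 400.5 gave no call. The log2 fold changes of the 50 were between 1.60 and 7.55 in size, with a median of 4.33. Gene models without a descriptive symbol made up 44% of the 50 and 28.2% of the tested genes. Over the 18248 genes with a mean of at least 20 the median log2 fold change was 0.03 and the median standard error 0.64.

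**Figure D1:**
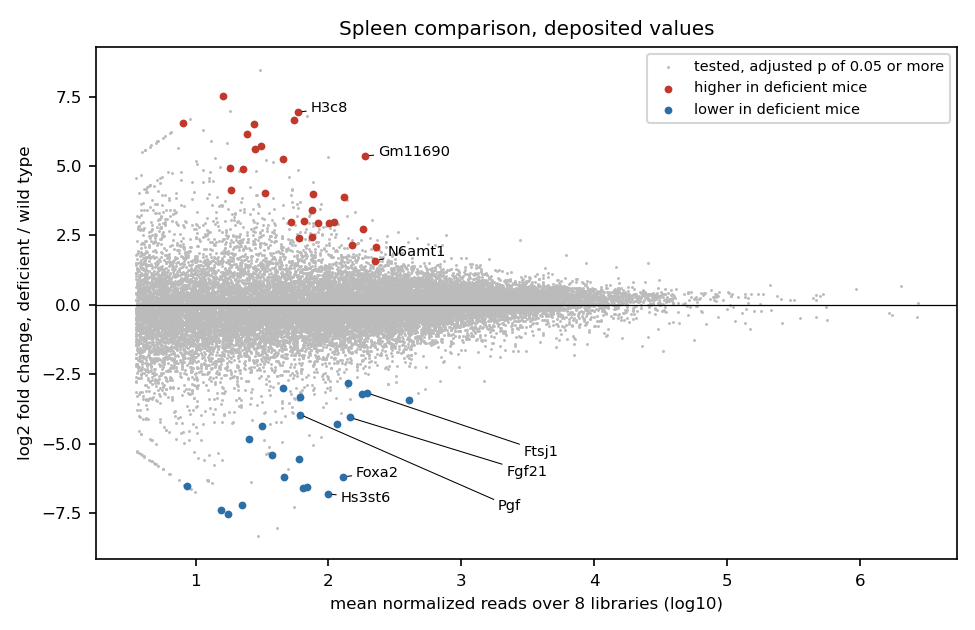
Log2 fold change (deficient over wild type, vertical axis) against the mean of normalized reads over 8 libraries (horizontal axis, log10) for the 23092 tested genes of the authors' deposited spleen table. Red points are the 28 genes higher and blue points the 22 genes lower in deficient mice at an adjusted p under 0.05, and grey points are the other tested genes. Every coloured point lies at a mean of 400.5 or less, left of the most abundant transcripts.

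Genes for a secreted growth factor, a hormone and signalling proteins were lower in deficient mice with no overlap between the genotypes. Pgf encodes placental growth factor, a ligand of the vascular receptor Flt1. Its reads were 16, 6, 5 and 5 in deficient and 58, 272, 107 and 74 in wild-type libraries, or 7.47 ± 2.66 and 115 ± 59.5 after normalization (SD, n = 4 each). All 4 deficient libraries were low and alike. Pgf fell by 3.95 ± 0.67 on the log2 scale in the authors' deposited table (adjusted p = 1.62e-05 by DESeq2's Wald test). Fgf21, a hormone of fasting and of the integrated stress response, had 4, 1, 4 and 33 reads in deficient and 262, 447, 339 and 146 in wild-type libraries. Wild-type libraries were all high, and deficient 4 stood above the other deficient libraries without reaching them. Its log2 fold change in the authors' deposited table was -4.05 ± 1.01 (adjusted p = 0.035), and -6.71 when refitted without deficient 4. Adjusted over every named gene with a p, Fgf21 did not pass (adjusted p = 0.0507).

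Mapk12, the gamma isoform of p38 kinase, had 79, 44, 4 and 27 reads in deficient and 506, 210, 247 and 340 in wild-type libraries, a log2 fold change of -3.22 ± 0.70 in the authors' deposited table. Rgs18, a regulator of G protein signalling found in platelets and their precursors, had 7, 17, 13 and 4 against 29, 84, 114 and 75 reads, and fell by 3.01 ± 0.75 on the log2 scale in the authors' deposited table. Cpt1c, the neuronal relative of the enzyme that admits fatty acids to mitochondria, had 121, 24, 19 and 11 against 245, 688, 116 and 143 reads. For Rgs18 and Cpt1c the normalized reads of the genotypes came close to each other without overlap, and for Cpt1c it was deficient 1 that stood high. The fall of Cpt1c was 2.81 ± 0.68 on the log2 scale in the authors' deposited table. Fzd7, a Wnt receptor, had the highest mean of the 50 and a log2 fold change of -3.43 by the authors' deposited table, but its reads per library were not recovered.

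Hs3st6, which encodes an enzyme that sulfates heparan sulfate chains, was nearly absent from deficient libraries. Its reads were 0, 5, 0 and 2 in deficient and 527, 14, 212 and 118 in wild-type libraries. Wild-type 2 was far below the other wild-type libraries, though still above every deficient library. In the authors' deposited table its log2 fold change was -6.81 ± 1.15 (adjusted p = 1.62e-05 by DESeq2's Wald test).

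Other falls rested on fewer wild-type libraries, and their genotypes overlapped. Foxa2, a transcription factor of endodermal epithelium, had 3, 9, 4 and 0 reads in deficient and 9, 33, 652 and 152 in wild-type libraries. Wild-type 3 and wild-type 4 were high and wild-type 1 was within the deficient range. The log2 fold change was -6.19 ± 1.21 in the authors' deposited table and -4.64 when refitted without wild-type 3. Prss27, a serine protease of stratified squamous epithelium, had 3, 7, 2 and 0 against 242, 5, 262 and 0 reads. Wild-type 1 and wild-type 3 held nearly all of them, and the other wild-type libraries were as low as the deficient ones. Its log2 fold change was -5.54 ± 1.41 in the authors' deposited table and -4.44 without wild-type 3. Prr22, a gene of a proline-rich protein, had 0, 2, 2 and 1 against 408, 62, 172 and 1 reads, with wild-type 4 as low as the deficient libraries. Its log2 fold change was -6.59 ± 1.26 in the authors' deposited table and -5.93 without wild-type 1.

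Single libraries carried much of 3 other falls. Zic1, a zinc finger transcription factor of neural development, had 1, 1, 2 and 2 reads in deficient and 5, 39, 3 and 168 in wild-type libraries. Wild-type 4 held 86.5% of its normalized reads, and the log2 fold change of -5.42 ± 1.32 in the authors' deposited table became -2.70 when refitted without that library. Drc7, a subunit of the dynein regulatory complex of motile cilia, had 9, 6, 24 and 3 against 147, 39, 11 and 483 reads. Wild-type 4 was again the highest and wild-type 3 lay below deficient 3. Its log2 fold change moved from -4.31 ± 1.11 in the authors' deposited table to -2.03 without wild-type 4. For Slc52a3, a riboflavin transporter with 2, 5, 4 and 1 against 29, 36, 165 and 3 reads, wild-type 3 was the high library. The change was from -4.36 ± 1.10 in the authors' deposited table to -2.47 without it.

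**Figure D2:**
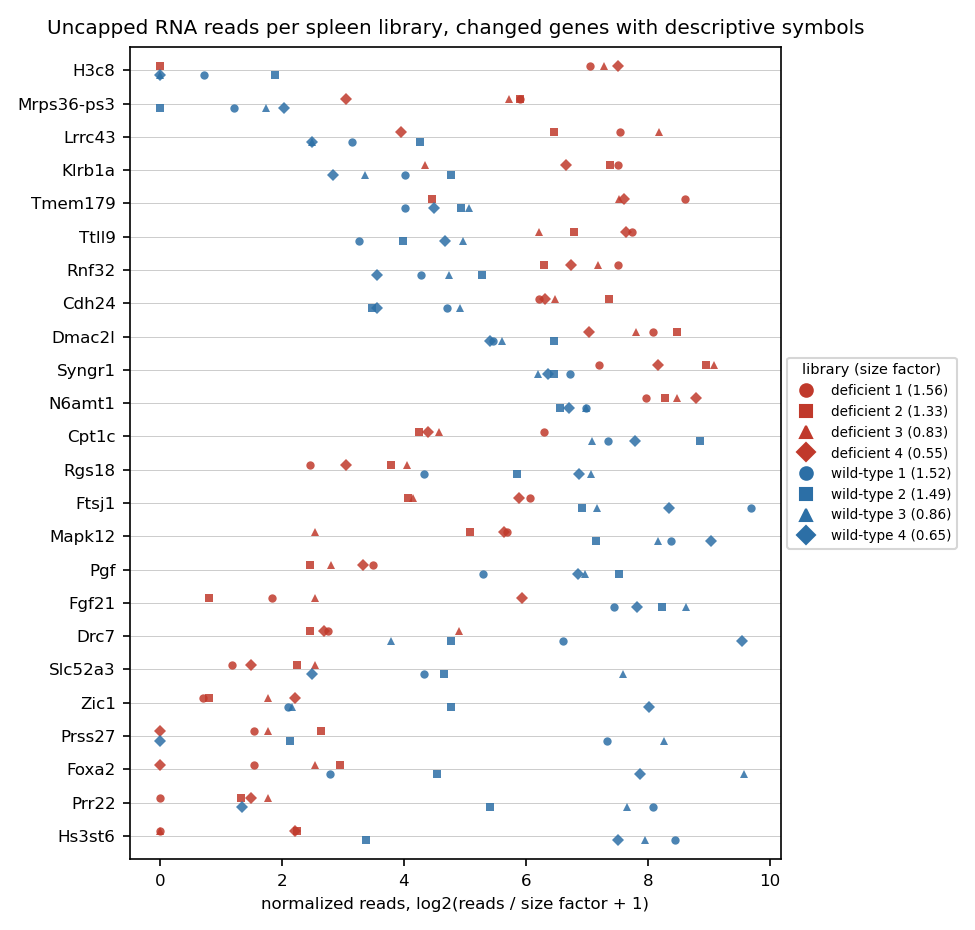
Normalized reads per library, as log2(reads / size factor + 1) on the horizontal axis, for the genes of the named rule with descriptive symbols and recovered reads that passed the threshold. Red marks are deficient and blue marks wild-type libraries, with 1 symbol shape for each library number. Marks of the 2 colours are apart for genes such as Pgf, Fgf21 and N6amt1 and mixed for Zic1, Slc52a3 and Prss27.

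Several genes were higher in every deficient library than in any wild-type library. N6amt1, a methyltransferase that works with the partner protein Trmt112, had 390, 413, 295 and 242 reads in deficient and 190, 139, 108 and 67 in wild-type libraries. The normalized means were 339 ± 80.4 and 112 ± 16.1 (SD, n = 4 each), apart in every library. Its log2 fold change of 1.60 ± 0.40 in the authors' deposited table (adjusted p = 0.0371 by DESeq2's Wald test) was the smallest of the 50. Dmac2l, a mitochondrial protein linked to the ATP synthase, had 423, 471, 186 and 71 against 65, 130, 41 and 27 reads. Syngr1, a vesicle membrane protein, had 227, 655, 449 and 157 against 158, 130, 62 and 53 reads. Both were apart in all 8 libraries after normalization and stood at 2.15 ± 0.52 and 2.08 ± 0.53 in the authors' deposited table.

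Cdh24, a cadherin, had 114, 217, 73 and 43 reads in deficient and 38, 15, 25 and 7 in wild-type libraries, a log2 fold change of 2.42 ± 0.60 in the authors' deposited table. Rnf32, a RING finger protein, had 283, 103, 120 and 58 against 28, 56, 22 and 7 reads and stood at 2.44 ± 0.57 in the authors' deposited table. Ttll9, a relative of the tubulin tyrosine ligases, had 333, 145, 61 and 109 against 13, 22, 26 and 16 reads and stood at 2.95 ± 0.61 in the authors' deposited table. The genotypes did not overlap for any of these 3 genes. They did for Tmem179, a membrane protein with 610, 28, 152 and 106 against 23, 44, 28 and 14 reads, where deficient 2 was as low as the wild-type libraries. They also did for Klrb1a, a receptor of natural killer cells with 283, 220, 16 and 55 against 23, 39, 8 and 4 reads, where deficient 3 was the low library. Lrrc43, a leucine-rich repeat protein, had 290, 116, 240 and 8 against 12, 27, 4 and 3 reads, and deficient 4 lay within the wild-type range. Tmem179, Klrb1a and Lrrc43 had log2 fold changes of 3.00 ± 0.76, 3.01 ± 0.77 and 4.00 ± 0.86 by the authors' deposited table. Refitted, it was 2.42 for Tmem179 without deficient 1 and 3.41 for Lrrc43 without deficient 3.

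A replication-dependent histone and a pseudogene were near 0 in wild-type libraries. H3c8, which encodes histone H3, had 206, 0, 128 and 100 reads in deficient and 1, 4, 0 and 0 in wild-type libraries. Of the deficient libraries 3 were high and deficient 2 had no read. H3c8 stood at 6.94 ± 1.43 on the log2 scale in the authors' deposited table (adjusted p = 0.00272 by DESeq2's Wald test). Histone H3 genes are near-identical copies, so reads may have been split among them in counting. Mrps36-ps3, a processed relative of a mitochondrial ribosomal protein gene, had 92, 78, 43 and 4 against 2, 0, 2 and 2 reads and stood at 4.89 ± 1.02 in the authors' deposited table. Deficient 4 was well below the other deficient libraries and above every wild-type library. Reads of a pseudogene may likewise belong to its parent gene.

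Gene models supplied 16 of the 28 rises and 6 of the 22 falls. Gm11690, a long noncoding RNA, had the smallest adjusted p of the table. Its reads were 952, 431, 344 and 73 in deficient and 22, 9, 5 and 6 in wild-type libraries, or 370 ± 198 and 8.90 ± 4.04 after normalization (SD, n = 4 each). The genotypes were far apart in all 8 libraries. The log2 fold change was 5.37 ± 0.64 in the authors' deposited table (adjusted p = 1.11e-12 by DESeq2's Wald test). Gm32282 and Gm40787, also long noncoding RNAs, had 140, 171, 87 and 16 against 2, 7, 0 and 2 reads and 270, 80, 161 and 6 against 2, 2, 0 and 1 reads. Both were apart, with deficient 4 the lowest deficient library. They stood at 5.24 ± 0.85 and 6.67 ± 1.09 in the authors' deposited table. Among the falls Gm13738 had 0, 1, 2 and 2 against 44, 51, 105 and 231 reads, a log2 fold change of -6.55 ± 1.11 in the authors' deposited table and of -5.42 without wild-type 4.

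Reads were recovered for 49 of the 50 genes. The genotypes did not overlap for 33 of them, 21 rises and 12 falls, and overlapped for 16. In all recovered tested genes with a mean of at least 20 the genotypes did not overlap for 2.19%, 0.97% with the deficient libraries higher and 1.22% with them lower. The called genes were selected on the same reads, so this share is a description. The highest library held a median of 43.8% of the normalized reads of the 49, against 31.9% over recovered genes with a mean of at least 20. Refitted without each library in turn, with the dispersion kept, all 49 kept their sign. The median loss of log2 fold change without the most influential library was 0.51, and the largest loss was 2.71, for Zic1.

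Gene segments of antigen receptors are joined at random in each developing lymphocyte, and a clone of cells then shares 1 joined gene. Of 193 tested V and J segments 3 were called, or 1.55%, beside 0.217% of all tested genes. Trav14n-1, a T cell receptor alpha V segment, had 74, 88, 12 and 0 reads in deficient libraries and 0 in all wild-type libraries. Traj13, a T cell receptor alpha J segment, had 93, 14, 59 and 0 reads in wild-type libraries and Ighv3-1, a heavy chain V segment, 67, 15, 2 and 8, with 0 in all deficient libraries for both. Set against 3 reads over the 4 empty libraries, these are at least 61.3-fold higher, at least 52.4-fold lower and at least 29.0-fold lower in deficient mice. For Trav14n-1 and Traj13 1 library of the genotype with reads was also at 0, so the genotypes touched.

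The segments had a median log2 fold change of -0.67, with 127 of 193 negative, beside -0.0080 over all tested genes. At an unadjusted p under 0.05, 10 were higher (5.18%) and 27 lower (13.99%), beside 2.62% and 3.35% of all tested genes. Their reads were uneven among mice. The highest library held a median of 50.2% of normalized reads over 174 segments with a mean of at least 5, against 33.4% over 10531 genes of that mean. Segments of 1 family resemble each other in sequence, so their counts are uncertain.

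No other gene among the partners and relatives of Ftsj1 passed the test. The tested members of its list of partners and relatives other than Ftsj1 were positive, with log2 fold changes in the authors' deposited table of 0.10 ± 0.60 for Mrm3, 0.20 ± 0.68 for Mrm1, 0.43 ± 0.48 for Wdr6, 0.58 ± 0.56 for Ftsj3 and 0.33 ± 0.44 for Thada. Mrm2 is listed at 0. A list of enzymes that methylate RNA on the ribose, which shares Ftsj3, Mrm1 and Mrm3, was mixed in sign. Tarbp1, Cmtr2, Trmt44 and Fbl were negative, at -1.31 ± 0.70, -0.83 ± 0.70, -0.56 ± 0.63 and -0.43 ± 0.52 in the authors' deposited table. Trmt13 and Henmt1 were positive, at 0.42 ± 0.80 and 0.14 ± 0.70. Of 53 tested tRNA modification enzymes DESeq2 called 0, with 2 at an unadjusted p under 0.05, 28 positive and a median of 0.01. The 2 were Nsun6, a cytosine methyltransferase, at 1.06 ± 0.53 and Pus1, a pseudouridine synthase, at -1.33 ± 0.42 in the authors' deposited table (adjusted p = 0.802 and 0.227). Pus1 had 80, 100, 42 and 33 reads in deficient and 223, 214, 160 and 78 in wild-type libraries, all wild-type libraries the higher.

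Genes that use or serve transfer RNAs in translation had list medians from 0.05 to 0.22, beside -0.0080 over all tested genes, of which 49.5% were positive. An unadjusted p under 0.05 was found for 5.97% of all tested genes, 2.62% higher and 3.35% lower. These shares stand beside the counts of every list below. No test compared a list with other genes. Of 18 cytosolic aminoacyl-tRNA synthetases 14 were positive, with a median of 0.22, and DESeq2 called 0 with 0 at an unadjusted p under 0.05. Of 35 initiation and elongation factors 25 were positive, with a median of 0.20, 0 called and 1 at an unadjusted p under 0.05. Of 79 cytosolic ribosomal protein genes 42 were positive, with a median of 0.05, 0 called and 2 at an unadjusted p under 0.05. Genes of the decay machinery had medians of 0.14 over 21 decapping and 5′-3′ decay genes, 0.10 over 21 genes of the exosome and deadenylation and -0.05 over 15 nonsense-mediated decay genes. DESeq2 called 0 in each, with 1, 0 and 0 at an unadjusted p under 0.05. In the integrated stress response list Fgf21 was the 1 call among 27 tested genes, with a median of 0.03, and Atf4 stood at 0.37 ± 0.61 in the authors' deposited table.

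Most tested members of the neutrophil, erythroid, megakaryocyte, cell cycle and histone lists had positive fold changes, and H3c8 was the 1 call among them. Rgs18 of platelets, described above, is in none of these lists and fell. Of 18 neutrophil granule genes 13 were positive, with a median log2 fold change of 1.16, and 3 had an unadjusted p under 0.05, all positive. They were Elane, neutrophil elastase, at 2.34 ± 1.06, Mmp9, a gelatinase, at 1.22 ± 0.61, and Camp, the cathelicidin peptide, at 1.65 ± 0.84 in the authors' deposited table (adjusted p = 0.712, 0.805 and 0.833). The most abundant members, Ltf, Lcn2 and Ngp, stood at 1.49 ± 0.83, 1.37 ± 0.85 and 1.51 ± 0.85 in the authors' deposited table. S100a8 and S100a9, calcium-binding proteins of mature neutrophils, stood at 0.28 ± 0.72 and 0.21 ± 0.73 there. DESeq2 called 0 members of this list. Over all tested genes 49.5% were positive, and 2.62% were higher at an unadjusted p under 0.05. Reads were recovered for only 4 of its genes, Ctsg, Retnlg, Mmp8 and Csf3r, of which Ctsg alone was positive. Their normalized reads lay most in wild-type 1, with 29.3%, and wild-type 2, with 16.2%. Csf3r gave 483 of the 587 normalized reads in wild-type 1. The reads of Ltf, Ngp, Camp and Elane were not recovered, so these shares do not describe the rising genes.

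Of 38 erythroid genes 31 were positive, with a median of 0.46, and DESeq2 called 0 with 0 at an unadjusted p under 0.05. Hba-a1, alpha globin, was at 0.66 ± 0.68 and Gata1, the erythroid transcription factor, at 1.27 ± 1.04 in the authors' deposited table. Of 14 megakaryocyte and platelet genes 11 were positive, with a median of 0.63, 0 called and 0 at an unadjusted p under 0.05. Cell cycle genes were positive in 31 of 38, with a median of 0.47 and 0 called. The 3 at an unadjusted p under 0.05 were Hmmr, a spindle protein, at 1.35 ± 0.68, Aurkb, a mitotic kinase, at 1.69 ± 0.85 and Tcf19 at 2.18 ± 1.10 in the authors' deposited table.

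Of 36 tested replication-dependent histones 32 were positive, with a median of 0.89. H3c8 was the 1 call, and H3c15 and H2bc22 also had an unadjusted p under 0.05, both positive. Reads were recovered for 30 histones, and 35.9% of their summed normalized reads lay in deficient 3, against 2.9% to 16.6% in each other library. H2ac11 had 55, 326, 350 and 27 reads in deficient and 103, 5, 79 and 80 in wild-type libraries, so that deficient 2 and deficient 3 were high and deficient 4 was not. These lists share cell types and are not independent of each other.

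Lymphocyte, macrophage and interferon lists had medians between -0.07 and 0.30. Of 20 B cell genes 11 were positive with a median of 0.09, of 27 T cell genes 18 with 0.22, of 16 natural killer and cytotoxic genes 11 with 0.30 and of 22 macrophage genes 10 with -0.07. DESeq2 called 0 in each, with 0, 1, 1 and 0 at an unadjusted p under 0.05. Cd79a was at 0.08 ± 0.46 in the authors' deposited table. Of 38 interferon-stimulated genes 28 were positive with a median of 0.30, DESeq2 called 0, and Oas2 alone had an unadjusted p under 0.05. Oas2, a sensor of double-stranded RNA, had 113, 682, 63 and 7 reads in deficient and 18, 158, 8 and 2 in wild-type libraries, so that deficient 2 was the high library.

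In several lists most tested members had negative fold changes, and 3 of these lists are given here. Of 15 plasma cell genes 2 were positive, with a median of -0.43, and Ighg2b, an immunoglobulin heavy chain constant region, at -1.11 ± 0.47 in the authors' deposited table was the 1 at an unadjusted p under 0.05. Of 14 mitochondrially encoded mRNAs and rRNAs 1 was positive, with a median of -0.27 and 2 at an unadjusted p under 0.05. These transcripts are made without a cap, so their reads do not mark decapping. Of 23 immediate early genes 5 were positive, with a median of -0.29. The 2 at an unadjusted p under 0.05 went in opposite directions. They were Atf3 at 2.15 ± 0.98 and Jund at -1.23 ± 0.62 in the authors' deposited table. DESeq2 called 0 in each of these 3 lists.

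**Figure D3:**
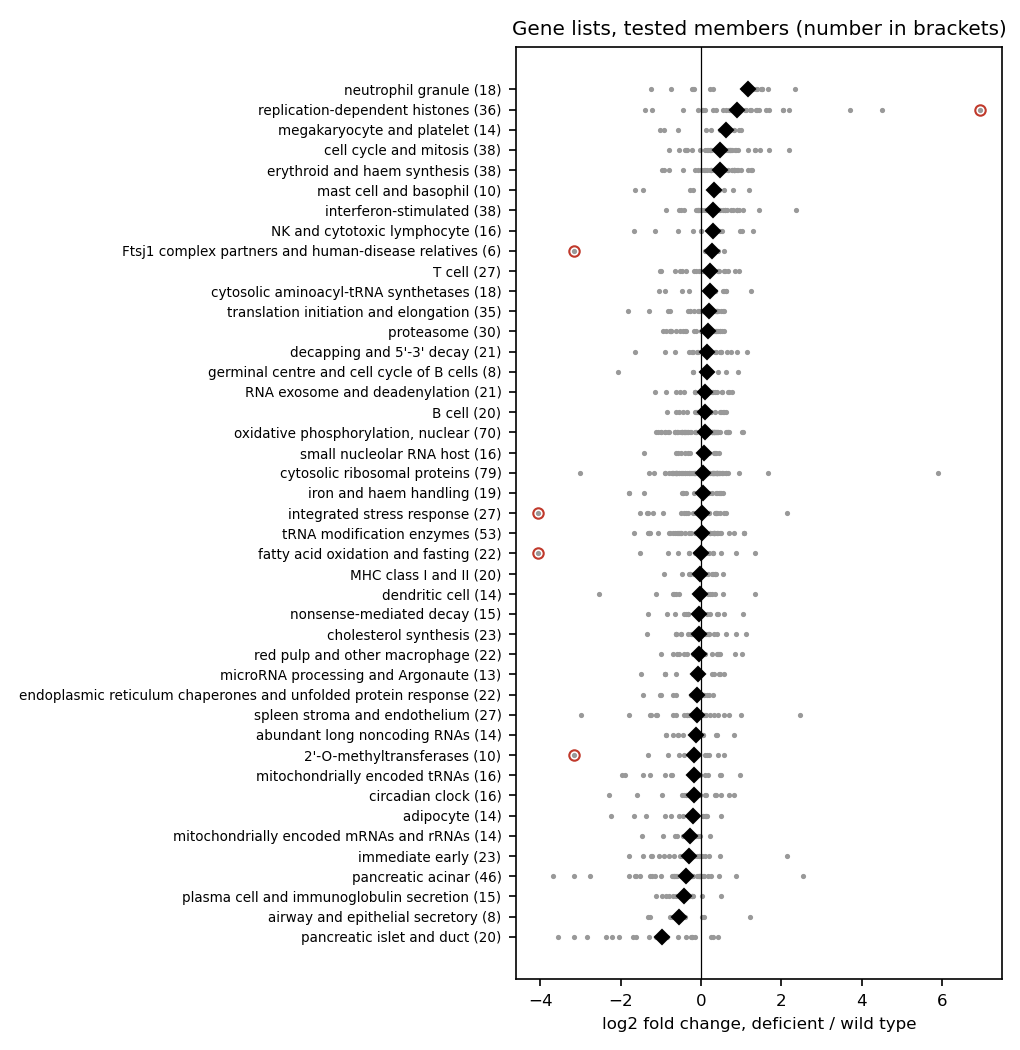
Log2 fold change (deficient over wild type) of the tested members of 43 gene lists, sorted by median, with the number tested in brackets. Grey points are single genes, black diamonds are list medians and red rings mark members with an adjusted p under 0.05, which are Ftsj1, H3c8 and Fgf21. Neutrophil granule and histone genes stand at the top and pancreatic islet and duct genes at the bottom.

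Most tested pancreatic genes had negative fold changes, and their reads varied widely between libraries. Of 46 tested acinar genes 7 were positive, with a median of -0.39, DESeq2 called 0 and 4 had an unadjusted p under 0.05, 3 of them negative. Over all tested genes 49.5% were positive, and 3.35% were lower at an unadjusted p under 0.05. The errors of the abundant enzymes were wide. Pnlip, pancreatic lipase, was at 0.08 ± 1.14, Cela1, an elastase, at -0.35 ± 1.09 and Cpa1, carboxypeptidase A1, at -0.64 ± 1.08 in the authors' deposited table. The median standard error of the acinar list was 1.13, against 0.64 over genes with a mean of at least 20.

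The acinar genes with recovered reads were uneven among the libraries. Rbpjl, a transcription factor of acinar cells, had 8, 3, 22 and 24 reads in deficient and 17, 385, 293 and 42 in wild-type libraries. Tmed6, a secretory pathway protein, had 9, 3, 8 and 20 against 3, 186, 35 and 332 reads. Wild-type 2, wild-type 3 and wild-type 4 were high in at least 1 of these genes, and wild-type 1 was as low as the deficient libraries in both. Over the 8 acinar genes with recovered reads 34.3% of the normalized reads lay in wild-type 2, 22.4% in wild-type 4 and 2.7% in wild-type 1. The deficient libraries held 1.3% to 11.9% each.

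Of 20 tested islet and duct genes 3 were positive, with a median of -0.99, DESeq2 called 0 and 6 had an unadjusted p under 0.05, all negative. The shares over all tested genes were 49.5% positive and 3.35% lower at that p. Ins2, insulin, was at -2.84 ± 1.19 and Gcg, glucagon, at -3.17 ± 1.27 in the authors' deposited table (adjusted p = 0.616 and 0.567). Gcg had 1, 2, 1 and 6 reads in deficient and 40, 127, 3 and 1 in wild-type libraries, and Sox9, a transcription factor of duct cells, 32, 36, 54 and 60 against 31, 231, 112 and 395. Wild-type 1 and wild-type 2 were high in Gcg, and wild-type 2 and wild-type 4 in Sox9. Iapp is listed at 0. Foxa2, a transcription factor also found in pancreas, was highest in wild-type 3 and wild-type 4. The part of pancreatic tissue in the falls of Foxa2 and Fgf21 was not tested.

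A set of genes was held by single libraries. Over 80% of the normalized reads lay in 1 library for 158 of 5700 recovered genes with a mean of at least 20, or 2.77%. These included 44 in wild-type 3, 40 in wild-type 4, 27 in deficient 1 and 14 in wild-type 2. DESeq2 by default leaves out the p of a gene with an extreme read number in 1 library. A p was missing in the authors' deposited table for 666 genes of mean 20 or more, 225 positive and 441 negative. Of the 41 with a mean of 1000 or more 39 were negative. The highest library held a median of 69.7% of the reads of recovered genes without a p and 30.6% of those with one.

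Transcripts of cornified epithelium, the outer layer of skin and of the mouse forestomach, were concentrated in wild-type 3. Their list was written after the values were seen, so the counts are a description. Of its members 42 had a mean of at least 20, all negative and 36 of them without a p. Krt5, a keratin of basal keratinocytes, had 53, 6, 13 and 3 reads in deficient and 58, 6, 2218 and 2 in wild-type libraries. Krt10, a keratin of upper layers, had 9, 47, 3 and 1 against 10, 13, 891 and 3 reads, and the late envelope gene Lce3f had 697 reads in wild-type 3 and 0 in the other 7 libraries. Wild-type 3 alone was high in all 3. Lce1f, another envelope gene, had 1424 reads in wild-type 3, 2 in wild-type 4 and 0 in the remaining 6 libraries. Reads of the list with recovered reads lay in wild-type 3 to 79.9%. Prss27, which also belongs to that list, had 262 reads in wild-type 3 and 242 in wild-type 1, where Krt5 had 58. The part of this tissue in the fall of Prss27 was not tested.

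Some melanocyte and acute phase genes were high in other libraries. Both lists were written after the values were seen. The melanocyte enzymes Dct and Tyrp1 had 524 and 222 reads in wild-type 2, against 2 to 21 and 0 to 9 in the other 7 libraries. Not all genes of the list did this. Mlana, a melanosome protein, had 33 reads in wild-type 2 and 37 in wild-type 3, and Oca2, a melanosome transporter, had 128 to 203 reads in deficient and 157 to 295 in wild-type libraries, with deficient 4 the highest after normalization. Wild-type 2 held 36.4% of the normalized reads of the 6 melanocyte genes with recovered reads. The acute phase proteins Saa1 and Saa2 had 702 and 473 reads in deficient 3, against 2 to 40 and 2 to 20 in the other 7. Other genes of that list did not follow them. After normalization Crp was lowest in deficient 3, and Orm1 and Apcs were each highest in another library. Reads of Saa3, Hp and Lcn2 were not recovered. Dct, Tyrp1, Saa1 and Saa2 had no p in the authors' deposited table.

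Loci of 2 microRNAs were among these single-library genes. Their mature sequences are shown because the reads fall on the loci that encode them, as given by RefSeq with the build GRCm38.p6, with the seed (bases 2 to 8) in capitals.
mmu-miR-203-3p: gUGAAAUGuuuaggaccacuag
mmu-miR-148a-3p: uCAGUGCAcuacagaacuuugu
The 2 seeds differ. Mir203, an epidermal microRNA, had 4, 4, 0 and 2 reads in deficient and 4, 22, 654 and 5 in wild-type libraries, high in wild-type 3 as the keratins were. Mir148a had 14, 0, 6 and 6 against 24, 611, 13 and 16 reads, high in wild-type 2. That library also held the largest share of the 8 acinar genes with recovered reads. The reads of abundant acinar enzymes such as Pnlip were not recovered. Degradome reads of a microRNA locus come from its longer polyadenylated precursor and not from the mature strand.

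**Figure D4:**
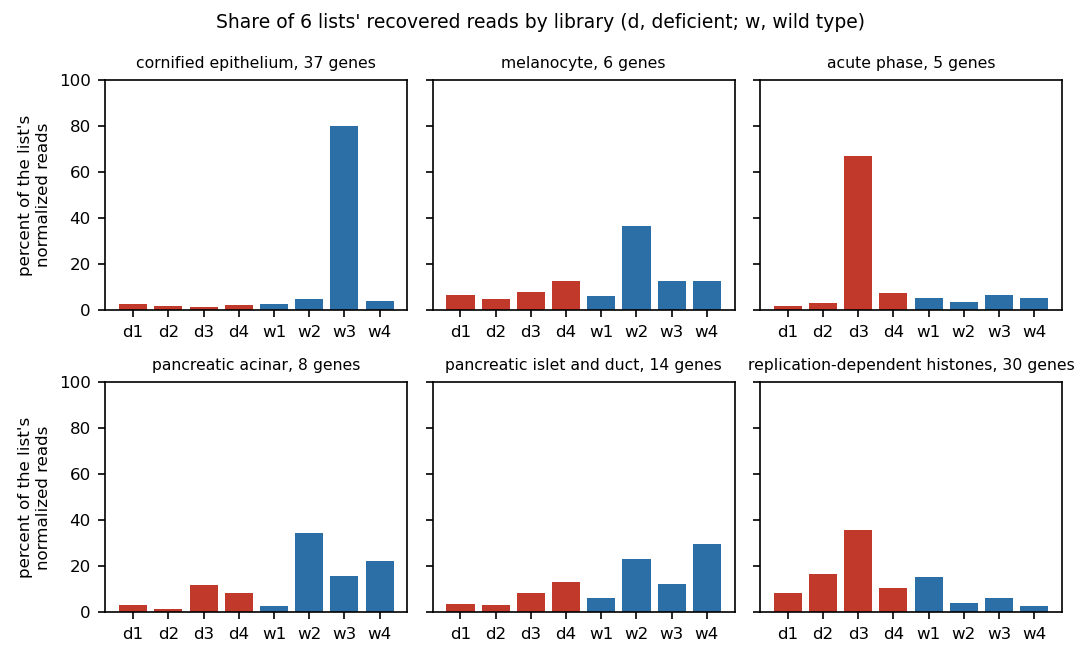
Percent of the summed normalized reads of 6 gene lists in each library (d1 to d4 deficient in red, w1 to w4 wild type in blue), over the members whose reads were recovered. Cornified epithelium lies mostly in w3, and summed acute phase reads lie mostly in d3 through Saa1 and Saa2. Summed melanocyte reads are highest in w2, and pancreatic genes are spread over w2, w3 and w4.

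The same contrast in the other organs, from other mice, was compared gene by gene. The tables named for brain and liver are called brain-named and liver-named, because Snap25, a neuronal gene, had a mean of 27106 in the authors' deposited table for liver and of 122 in that for brain. Alb, a hepatocyte gene, had a mean of 1.64e+07 in the table for brain and of 83263 in that for liver. Values of these tables are therefore not read as changes in the organ named. Of the genes called in spleen 2 also passed in the brain-named table, Ftsj1 and Fgf21, 1 in the kidney table, Gm40787, 1 in the liver-named table, Ftsj1, and 0 in the heart table. Fgf21 and Gm40787 passed there in the direction opposite to spleen, and the direction of Ftsj1 was set by choice. The sign was shared for 23 of 49, 26 of 45, 23 of 44 and 23 of 47 genes with a fold change in the brain-named, heart, kidney and liver-named tables. The shares over all genes of those tables are not given here, so these counts are a description.

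The difference itself passed for few genes, by a 2-sided z on both standard errors with Benjamini-Hochberg adjustment per organ. The counts were 7 of 31452 genes (0.0223%) against the brain-named table, 13 of 30522 (0.0426%) against heart, 55 of 29701 (0.185%) against kidney and 11 of 31473 (0.035%) against the liver-named table. Fgf21 fell in spleen and stood at 2.26 ± 0.38 in the authors' deposited brain-named table (adjusted p of the difference 5.14e-05). Hs3st6 was at 2.06 ± 0.57 in the authors' deposited brain-named table (adjusted p of the difference 1.44e-07) and Pgf at 0.41 ± 0.36 in the authors' deposited heart table (adjusted p of the difference 3.48e-04). Gm40787, which rose in spleen, was at -6.83 ± 1.94 in the authors' deposited kidney table (adjusted p of the difference 3.71e-05). The spleen falls of Foxa2 and Hs3st6 also differed from the authors' deposited liver-named table, where they stood at 1.57 ± 1.11 and -0.32 ± 0.80 (adjusted p of the difference 0.0151 and 0.0193).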

How the data were processed

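The samples were 4 Ftsj1-deficient and 4 wild-type spleen libraries of degradome tags. Per the submitters' processing notes, the authors used GRCm39, featureCounts, Subread 2.0.3 and DESeq2. The version and model of DESeq2 are not given in the sources used here. In the authors' deposited table the mean is a signal, the normalized reads averaged over 8 libraries. The deposited fold change and standard error are on the log2 scale, the deposited Wald statistic is a score, and the authors' p-value comes with its adjusted form. A row without a gene name was left out.

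The table holds no values per library, so edgeR could not be run and the deposited adjusted p was used at 5%. Whole reads were recovered by arithmetic. A mean is the sum of each library's reads over its size factor, divided by 8. Genes with a single read gave the size factors and, by the sign of their fold change, the genotype. For other genes a combination of whole reads was kept where the model refitted from it returned the deposited fold change and error within 1e-09, with up to 0.05 chance matches allowed. For 46 genes, with few or no reads in 1 genotype, the mean decided, with the fold change within 0.01. This was tried for all genes with a mean above 0.5 and up to 100 and, above that, for called genes, list members and genes with an extreme fold change. A check on simulated data returned 99.6% of 259 genes, 0 of them wrong. Its result was not split by mean. No simulated gene had a mean above 100, so recovery at such means, as for Ftsj1, was not checked. The total depth of a library is unknown, and errors are the deposited standard errors or SDs over libraries.

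The mice are separate animals, with brothers in both groups. Differences between organs used a z from the deposited errors. In a simulated spleen and heart comparison it found 91.5% of 200 log2 differences of 5 and wrongly called 6 other genes. The simulated errors were normal draws with the deposited standard errors. The simulation therefore could not show how the z behaves for genes with few reads. The named genes were Ftsj1, the 15 largest rises and 15 largest falls of descriptive symbol and mean 20 or more, the 10 smallest adjusted p, the 10 highest means past the threshold, list members past it and, in other lists, up to 3 of the highest means, genes without a p and up to 10 differences between organs. Not every one is printed. Other genes were named after their values were seen. The 43 lists and the members were chosen with earlier results of these data known, and 3 further lists after the values were seen. The alternatives were other thresholds, gene sets, centring and scaling, and leaving out each library. Python 3.11.15, numpy 2.4.6, pandas 2.3.3, scipy 1.17.1, numba 0.67.0 and matplotlib 3.10.9 were used.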

Additional observations from a re-analysis of the deposited data

Results flagged for a closer look

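In 5 of 60 genotype groups of 4 libraries, 1 library stood apart from the other 3 by more than the 95% critical value of Dixon's gap test allows, on the scale of log2(normalized reads + 1). About 1 group in 20 does so by chance. The gap, as a share of the group's range, was 0.938 for H3c8, where deficient 2 was low, 0.936 for Mrps36-ps3, where deficient 4 was low, and 0.878 for Drc7, where deficient 3 was high. It was 0.84 for Cpt1c, where deficient 1 was high, and 0.901 for Gm40787, where wild-type 3 was low. The wild-type reads of Gm40787 were 2, 2, 0 and 1, so its flag lies at the floor of the scale. All 5 genes kept their direction without the flagged library.

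The genotype effect in spleen differed from that in another organ by the z test for 10 genes, those of smallest p with each gene taken once, at the organ where its p was smallest. The log2 fold change in spleen minus that in the brain-named table was -8.86 for Hs3st6, an enzyme of heparan sulfate, and -6.32 for Fgf21. Against the liver-named table it was -8.11 for Gm13738. Against heart it was -4.36 for Pgf, -6.80 for Cfap126, a gene of motile cilia, and 4.94 for Gm32282. Against kidney it was 13.5 for Gm40787, 7.90 for Ppp1r14a, an inhibitor of myosin phosphatase, -4.39 for Unc5b, a netrin receptor, and -4.73 for Ms4a7, a macrophage membrane protein. The last 3 and Cfap126 did not pass the threshold in spleen itself, and the authors' deposited kidney table puts Ppp1r14a at -4.56 ± 1.10, Unc5b at 2.37 ± 0.38 and Ms4a7 at 4.56 ± 0.71.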

How the results depend on the processing

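In place of 50 genes, 21 passed a false discovery rate of 1% and 78 one of 10%, and 16 passed when gene models and pseudogenes were left out, which tests fewer genes. Every other setting gave between 38 and 63. The adjusted p of Ftsj1, 0.0261, did not pass at 1%, and over the alternatives it lay between 0.0138 and 0.0491. Its log2 fold change refitted without each library lay between -3.57 and -2.32, the latter without wild-type 1. List members called numbered 3, Ftsj1, Fgf21 and H3c8, with members of a mean of at least 20, with centred fold changes and at 10%. At 1% only H3c8 of these passed. Differences from another organ numbered 15 with z over its robust spread in place of 7 for the brain-named table. For heart they numbered 20 with a mean of at least 20 in both tables and 30 with the robust spread, in place of 13. For the liver-named table they numbered 18 and 35, in place of 11. The cause was not tested. Among 30 called genes of the naming rule, 15 did not pass at 1% and 10 did not with adjustment over every gene with a p, and none changed sign.

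No paired analysis was possible because the recovered libraries carry no mouse number. Counts of called genes without each library were not run, since reads were recovered mainly for genes with means up to 100. Depth limits the comparison, with a median standard error of 0.64 at a mean of at least 20, and how the counting treated near-identical genes such as histones, receptor segments and pseudogenes is unknown.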
